A study of Mus musculus with 6 samples.

Results

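The EGF receptor (Egfr), its partner receptor Erbb2, 6 growth factors of the EGF family (Hbegf, Areg, Ereg, Tgfa, Btc and Nrg1) and the intracellular receptor inhibitor Errfi1 were followed in MLO-Y4 cells, a murine osteocyte-like cell line, after low-intensity pulsed ultrasound (LIPUS). These 9 genes were chosen by name from the 53797 genes of the expression table. RNA was collected from 3 cultures stimulated with LIPUS for 20 min at 1.5 MHz and 30 mW/cm2, and from 3 untreated Control cultures, 30 min after the stimulation ended. LIPUS and Control wells lay in the same 6-well plates, with 3 of the 6 transducers unplugged. All cultures were grown in α-MEM with fetal bovine serum and seeded on collagen before stimulation. The authors' table gives 1 pooled FPKM (fragments per kilobase of exon, scaled to the mapped reads) for each group and no value for a single culture. The spread between cultures is therefore unknown, and every difference below is a description without a test. In the study's principal component analysis a Control culture stood apart from the others of its group. The paper proposes that ultrasound may have leaked into Control cells, which shared a plate with the LIPUS cells. Whether Control cells were partly stimulated was not tested. The pooled Control values include the culture that stood apart, and no value could be computed without it. FPKM is a level per transcript length, so the values can be compared between genes.

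EGF family growth factors are made as membrane-anchored precursors, which proteases of the ADAM family cut to release the active factor. The factor then binds the EGF receptor on the same or on a neighbouring cell, and the receptor pairs with a second EGF receptor or with Erbb2, which has no ligand of its own. The paired kinases start the Ras, Raf and MAPK cascade, which turns on early response genes such as Fos and Egr1, and negative regulators such as Errfi1 then shut the receptors off. In bone, EGF receptor signalling is known to act in cells of the osteoblast lineage.

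The levels of the members in Control cells spanned a wide range. Errfi1 was the most abundant, followed by Ereg, Hbegf, Egfr, Areg, Erbb2, Nrg1 and Btc, and Tgfa was listed at 0. With no replicate values, the order of neighbours such as Erbb2 and Nrg1 cannot be set against their spread. A gene was compared further where the mean of both groups was at least 1 FPKM and both values were above 0, which held for 7 of the 9 members and for 11465 genes in all. The authors' program compared the same 7 members and left Tgfa and Btc without a comparison. The 3 members with the highest levels, Errfi1, Ereg and Hbegf, had higher values after LIPUS, and the other 4 had lower values. Genes with a mean FPKM within 2-fold of each member leaned slightly the same way. Their median log2 ratio was 0.024 for Errfi1, 0.062 for Ereg and 0.054 for Hbegf. For the other 4 members it lay between -0.021 and -0.0042. In a whole culture, more cells that carry a transcript and more transcript per cell cannot be told apart. No member differed by 1.5-fold or more, a ratio reached by 15.6% of all genes kept, and a ratio of 2 was reached by 5.49% of all genes, 2.66% higher and 2.83% lower. A smaller ratio, 5 to 4 between the higher and the lower group, was reached by 4 of the 7 members and by 34.6% of all genes. Of these, 3 members lay higher after LIPUS, against 16.8% of all genes, and 1 lay lower, against 17.8% of all genes. The median log2 ratio of LIPUS over Control was -0.08 over the 7 members and -0.0014 over all genes kept.

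**Figure D1:**
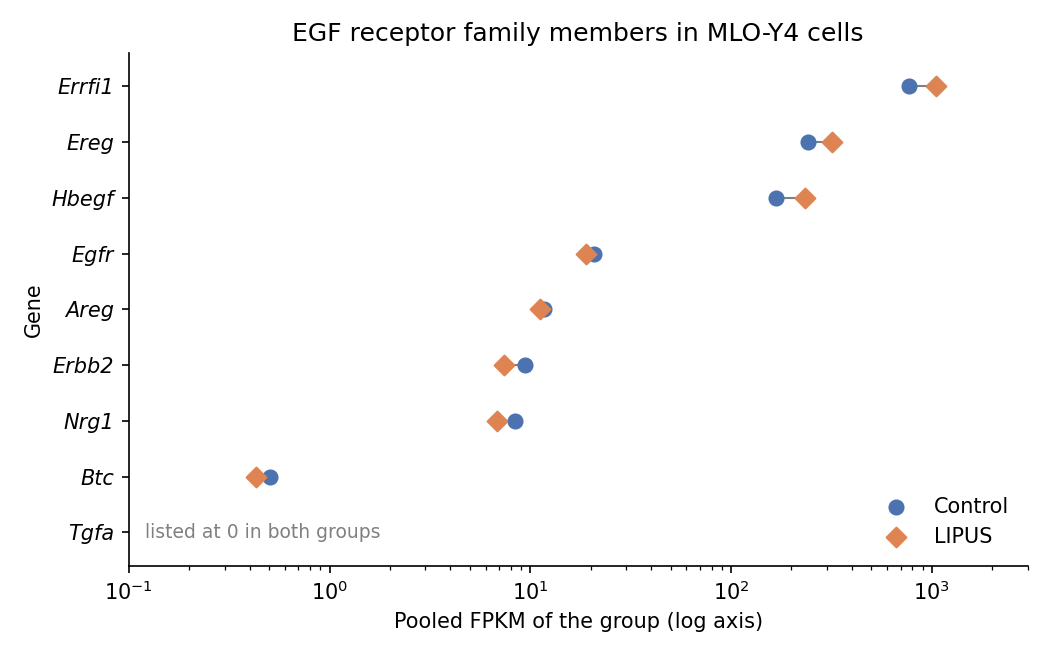
Pooled FPKM of each member in Control cells (circles) and LIPUS-treated cells (diamonds) on a log axis, with 1 value per group and no error bars because the table holds no replicate values. Errfi1, Ereg and Hbegf lie to the right in LIPUS-treated cells, and Tgfa is listed at 0.

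Among the ligands, Hbegf (heparin-binding EGF-like growth factor, which binds the EGF receptor and Erbb4) showed the largest ratio of all members. The pooled FPKM of Hbegf was 168.2 in Control cells against 232.4 after LIPUS, 1.38-fold higher or 0.47 on the log2 scale. This placed Hbegf from rank 526 to rank 400 among all genes. Of the 719 genes with a mean FPKM within 2-fold of that of Hbegf, 8.48% differed by as much or more in either direction. Hbegf lies on chromosome 18 of GRCm38 from 36504927 to 36515805, on the minus strand. The genes closest to Hbegf on the log2 FPKM of the 2 groups were Dstn, Ctsl and Atp5l, at distances of 0.042, 0.12 and 0.13, a likeness that rests on 2 pooled values per gene.

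Ereg (epiregulin, a ligand of the EGF receptor and Erbb4) was the most abundant ligand. The pooled FPKM of Ereg was 243.0 in Control cells against 318.3 after LIPUS, a ratio of 1.31 or 0.39 on the log2 scale. Of the 497 genes within 2-fold of the level of Ereg, 10.9% differed by as much or more in either direction. Ereg lies on chromosome 5 from 91074622 to 91093646, on the plus strand. The antisense gene Gm19610 overlaps its 5′ end up to position 91074773, with an FPKM of 1.76 in Control cells against 1.78 after LIPUS. Whether the FPKM used the strand was not stated, so the 2 genes may share reads there.

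Areg (amphiregulin, a ligand of the EGF receptor) has no row under its own symbol. Its Ensembl identifier, ENSMUSG00000029378, and its position on chromosome 5 from 91139599 to 91148432 are listed under the symbol Mcub, which RefSeq gives as a synonym of Areg. A search by symbol alone thus finds 8 of the 9 members. A separate gene on chromosome 3, ENSMUSG00000027994, also carries the symbol Mcub, with an FPKM of 67.5 in Control cells against 55.5 after LIPUS, and was not used for Areg. The pooled FPKM of Areg was 11.8 in Control cells against 11.1 after LIPUS, a log2 ratio of -0.08. Of the 4303 genes within 2-fold of the level of Areg, 80.6% differed by as much or more in either direction.

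Btc (betacellulin, a ligand of the EGF receptor and Erbb4) had a pooled FPKM of 0.504 in Control cells against 0.428 after LIPUS, below the minimum for a comparison. Tgfa (transforming growth factor alpha, a ligand of the EGF receptor) was listed at 0 in both groups. The authors' program left Tgfa without a comparison rather than marking it as failed, and a listed 0 does not show that the transcript was absent. Nrg1 (neuregulin 1, which binds Erbb3 and Erbb4 rather than the EGF receptor) had a pooled FPKM of 8.38 in Control cells against 6.85 after LIPUS, a log2 ratio of -0.29. Of the 3967 genes within 2-fold of the level of Nrg1, 43.7% differed by as much or more in either direction. Nrg1 spans 1069479 bases on chromosome 8, from 31814551 to 32884029 on the minus strand, with 18 annotated transcripts, and the table does not separate these.

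Epgn, Ereg, Areg and Btc are neighbours within 375.5 kb of chromosome 5. Epgn encodes epigen, another ligand of the EGF receptor. Ereg and Areg, separated by 46.0 kb, differed 20.6-fold in level in Control cells against 28.6-fold after LIPUS. Epgn, 39.4 kb from Ereg on the other side, was listed at 0 in Control cells and had an FPKM of 0.137 after LIPUS. Btc lies 208.8 kb beyond Areg. Of these 4 ligand genes, Ereg had the highest level in both groups.

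Summed over the 7 ligands of the EGF receptor (Hbegf, Ereg, Areg, Btc, Tgfa, Epgn and Egf), the pooled FPKM was 423.5 in Control cells against 562.5 after LIPUS, a ratio of 1.33. Hbegf and Ereg together made up 97.1% of this sum in Control cells against 97.9% after LIPUS. Ereg held 57.4% and 56.6%, and Hbegf 39.7% and 41.3%. The mixture of ligand transcripts was thus close in both groups, with a higher sum after LIPUS. The FPKM of all genes together was 1.03-fold higher in the LIPUS group.

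**Figure D2:**
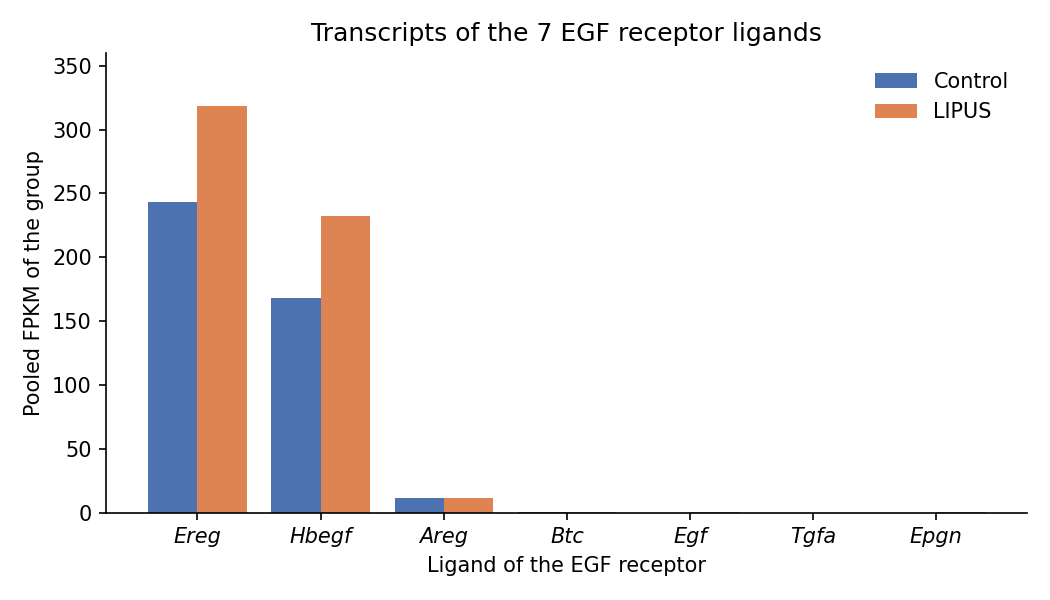
Pooled FPKM of the 7 EGF receptor ligands in Control (blue) and LIPUS-treated cells (orange) on a linear axis from 0, with 1 pooled value per bar. Ereg and Hbegf hold nearly all of the ligand FPKM in both groups, Areg is near 11 FPKM, and the bars of the other 4 are too low to see.

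On the receptor side, the values were lower after LIPUS. The pooled FPKM of Egfr was 20.7 in Control cells against 19.0 after LIPUS, a log2 ratio of -0.13. Of the 4283 genes within 2-fold of the level of Egfr, 64.3% differed by as much or more. Egfr lies on chromosome 11 from 16752203 to 16918158, on the plus strand. Erbb2, the partner kinase without a ligand, had a pooled FPKM of 9.42 in Control cells against 7.42 after LIPUS, the lowest ratio among the members at -0.34 on the log2 scale, or 1.27-fold lower. Of the 4098 genes within 2-fold of the level of Erbb2, 35.1% differed by as much or more. Erbb2 lies on chromosome 11 from 98412470 to 98437716, on the plus strand. Its last few bases overlap Mien1 on the opposite strand, annotated from 98437708 to 98438991. Mien1 had an FPKM of 31.1 in Control cells against 34.7 after LIPUS. Only reads that reach this short overlap may have been given to the wrong one of the pair. Erbb3 and Erbb4, the receptors of neuregulins, were at most at an FPKM of 0.0435 in either group, and Erbb4 was listed at 0 in both.

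Errfi1 (also known as Mig6) encodes a protein that binds the kinase domains of the EGF receptor and Erbb2, blocks their activity and promotes their removal from the cell surface. Errfi1 was at rank 105 of all genes in Control cells and at rank 77 in LIPUS-treated cells. Its pooled FPKM was 770.4 in Control cells against 1044 after LIPUS, a ratio of 1.36 or 0.44 on the log2 scale. Of the 168 genes within 2-fold of this level, 7.74% differed by as much or more in either direction. Errfi1 transcripts exceeded Egfr transcripts 37.2-fold in Control cells against 55.1-fold after LIPUS on the per-length FPKM scale. Errfi1 lies on chromosome 4 from 150853919 to 150868892, on the plus strand.

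**Figure D3:**
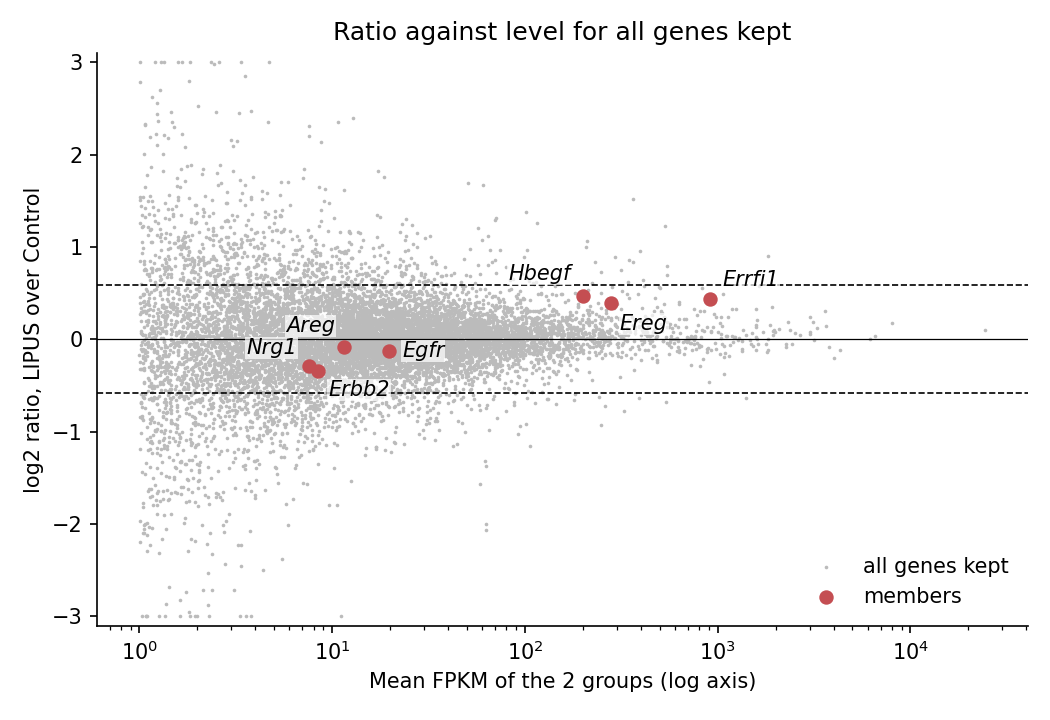
The log2 ratio of LIPUS over Control against the mean FPKM of the 2 groups (log axis) for the 11465 genes kept (grey, ratios beyond 3 drawn at 3) and the 7 members kept (red). Dashed lines mark a ratio of 1.5 in either direction, and all 7 members lie between them, with Hbegf, Ereg and Errfi1 near the upper line at levels where most genes lie close to 0.

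The promoters of a member that was higher after LIPUS and of a member that was nearly level could be set side by side. RefSeq promoter windows (GRCm38.p6, 250 bases before to 50 after the start) were at hand for 6 of the 9 members, Egfr, Erbb2, Areg, Tgfa, Btc and Errfi1. They were searched on both strands for the cyclic AMP response element (CRE, TGACGTCA), the AP-1 site (TGANTCA), the EGR site (GCGNGGGCG), the CArG box of serum response factor, the TATA box (TATAAA) and the TEAD site (GGAATG). The CRE was found in 1.79% of all 32851 windows, the AP-1 site in 7.81%, the EGR site in 5.55%, the CArG box in 1.63%, the TATA box in 13.6% and the TEAD site in 14.7%. Areg and the downstream of the 2 start sites of Errfi1 each held a CRE followed by a TATA box, a pair of motifs found in 0.170% of all windows in any order. Of the possible pairs of motifs, this share was computed only for the pair seen in these windows. It therefore does not show that the match is unusual. In Areg, at chr5:91139349-91139648 on the plus strand, the CRE began at position -61 and the TATA box at -31 from the start. In Errfi1, at chr4:150854820-150855119 on the plus strand, they began at -51 and -28. The log2 ratios of Areg and Errfi1 were -0.08 and 0.44, and whether the motifs bear on these ratios was not tested. The other members with higher values after LIPUS, Hbegf and Ereg, had no window. Both windows are printed 5′ to 3′ with the CRE and the TATA box in capitals.
Areg: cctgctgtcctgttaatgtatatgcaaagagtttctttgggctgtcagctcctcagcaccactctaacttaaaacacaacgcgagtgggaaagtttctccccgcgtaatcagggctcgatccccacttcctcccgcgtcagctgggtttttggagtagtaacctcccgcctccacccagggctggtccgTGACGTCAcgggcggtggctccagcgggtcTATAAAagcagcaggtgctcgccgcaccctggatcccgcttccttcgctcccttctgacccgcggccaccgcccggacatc
Errfi1: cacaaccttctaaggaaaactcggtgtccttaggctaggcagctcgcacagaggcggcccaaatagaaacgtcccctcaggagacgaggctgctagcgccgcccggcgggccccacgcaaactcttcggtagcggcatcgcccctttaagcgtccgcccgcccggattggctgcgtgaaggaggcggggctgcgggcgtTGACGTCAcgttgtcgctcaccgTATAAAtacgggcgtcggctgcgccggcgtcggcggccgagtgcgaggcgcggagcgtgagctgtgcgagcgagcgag
The window at the upstream start of Errfi1 held a TEAD site on the minus strand at position -65, and that of Erbb2 one on the plus strand at -88. The windows of Egfr, Tgfa and Btc held none of the motifs. Such matches describe letters in these windows and do not show that a factor is bound.

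The genes around the receptors were described from lists written by hand. Of the other ErbB receptors and ligands (Egf, Epgn, Nrg2, Nrg3, Nrg4, Erbb3 and Erbb4), 0 of 7 reached the minimum FPKM, and the most abundant was Nrg4, with 0.235 in Control cells against 0.348 after LIPUS. Of the genes of ligand shedding, which hold the proteases that release the growth factors, their regulators and the inhibitor gene Timp3, 5 of 7 were kept and 0 differed by 1.5-fold, against 15.6% of all genes, with a median log2 ratio of 0.10. The most abundant was the protease gene Adam9, with a pooled FPKM of 45.5 in Control cells against 49.9 after LIPUS. Adam17, a main sheddase of several of these ligands, had 13.3 FPKM in Control cells and 12.5 after LIPUS. Adam10, another protease gene of this list, had 39.6 and 32.4 FPKM.

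All 21 genes of the adaptors and the kinase cascade were kept, and their median log2 ratio was 0.0057. Gab1, an adaptor of the PI3 kinase branch, was the 1 gene past the 1.5-fold line, with an FPKM of 1.95 in Control cells against 1.20 after LIPUS. This call was lost with a pseudocount of 1 FPKM and with a minimum mean of 5 FPKM. The authors' program left Gab1 without a comparison. The most abundant was the kinase gene Akt1, with 147.5 and 119.4 FPKM. Of the 13 genes of receptor turnover and inhibition, all were kept, with a median log2 ratio of 0.037. Cbl, which encodes a ubiquitin ligase that sends the EGF receptor to degradation, was the 1 gene past the line, with an FPKM of 10.2 in Control cells against 6.73 after LIPUS. Cbl was 1.51-fold lower and did not reach the line with a pseudocount of 1 FPKM. Ptprj of the same list lay just inside the line, at 1.498-fold lower. The most abundant was the phosphatase gene Ptpn1, with 81.4 and 66.7 FPKM. The shares past the line were 1 of 21 and 1 of 13, against 15.6% of all genes kept, whatever their level. The difference between these shares was not tested.

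Of the MAPK feedback genes, 8 of 9 were kept, with a median log2 ratio of 0.12, and 1 of the 8 was past the line, against 15.6% of all genes. Dusp5, which encodes an ERK phosphatase of the nucleus, was this gene and the most abundant, with an FPKM of 175.8 in Control cells against 269.0 after LIPUS. Of the early genes of growth factor signalling, all 14 were kept. Of these, 8 were at least 1.5-fold higher and 0 at least 1.5-fold lower, against 7.48% and 8.08% of all genes, and the median log2 ratio was 0.63. Part of these genes were already known to respond in these data when the list was written, so the count is no independent evidence. The 8 genes were Egr1, Egr2, Egr3, Fosb, Junb, Ier3, Phlda1 and Klf10. The largest ratio was that of Egr2, at 2.59, and the smallest of the 8 that of Ier3, at 1.53. Junb was the most abundant, with an FPKM of 414.7 in Control cells against 672.6 after LIPUS. Phlda1 had 319.8 and 498.7 FPKM, and Klf10 48.2 and 86.1 FPKM. The ratios of Hbegf, Errfi1 and Ereg lay above those of Jun (1.24), Fosl1 (1.16), Myc (1.14), Ier2 (1.10) and Klf6 (0.868), and below those of the other 9 early genes.

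**Figure D4:**
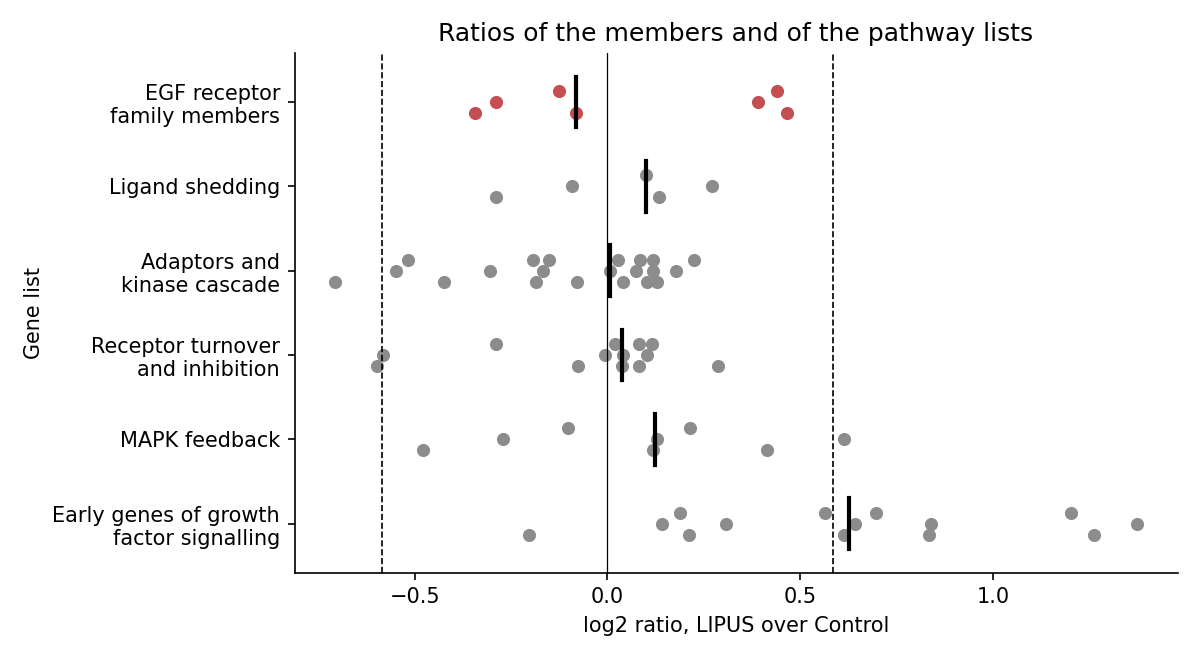
The log2 ratio of LIPUS over Control for each member kept (red) and each kept gene of 5 pathway lists (grey), with the median of each as a black bar and dashed lines at a ratio of 1.5 in either direction. Of the early genes of growth factor signalling, 8 of 14 lie beyond the upper line, while the members split into 3 higher and 4 lower genes inside the lines.

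The identity of the cells was checked against marker genes. Of 10 osteocyte and osteoblast markers, 5 were kept, with 1 at least 1.5-fold higher and 1 at least 1.5-fold lower after LIPUS, against 7.48% and 8.08% of all genes. Dmp1, a matrix protein gene of osteocytes, had a pooled FPKM of 3.04 in Control cells against 7.65 after LIPUS, a ratio of 2.52. Alpl, which encodes the alkaline phosphatase of osteoblasts, had 293.0 in Control cells against 189.7 after LIPUS, 1.55-fold lower. Pdpn had a pooled FPKM of 295.4 in Control cells against 401.7 after LIPUS, Gja1 176.5 and 169.7, and Col1a1 891.5 and 731.2. Sost, Mepe and Fgf23, markers of mature osteocytes, were listed at 0 in both groups, while Bglap was at 0 and 1.58 FPKM and Phex at 0 and 0.190 FPKM. EGF family ligands are abundant in epithelia and are also made by macrophages, so markers of these cells bear on the ligand values. Of 6 epithelial markers, 5 were listed at 0 in both groups and the other, Krt18, was at 0.201 and 0.514 FPKM. Of 5 markers of macrophages and other leukocytes, Ptprc and Adgre1 were listed at 0 in both groups, Csf1r was at 0.236 and 0.233 FPKM, Cd68 at 5.32 and 1.72 FPKM, and Cd14 at 8.19 and 10.6 FPKM. The sum of the 5 was 13.7 FPKM in Control cells against 12.6 after LIPUS. Of 3 endothelial markers, Cdh5 and Kdr were listed at 0 in both groups and Pecam1 was at 0.496 and 0 FPKM. The part of these markers in the ligand values was not tested.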

How the data were processed

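RNA of 3 LIPUS and 3 Control cultures of MLO-Y4 cells was sequenced from stranded mRNA libraries as paired-end reads of 100 bases. According to the submitters' processing notes, reads were trimmed with Trimmomatic 0.36 and aligned to GRCm38 with TopHat2 2.1.0 and Bowtie2 2.2.6.0. The authors computed FPKM with Cufflinks and Ensembl transcripts and compared the groups with Cuffdiff. The deposited table holds 1 FPKM per group over its libraries. Its other columns hold the authors' fold change, test statistic, p-value and q-value, and were not used. The methods state the depth as a round number of reads per library, but the table holds no counts per gene, so no interval is given.

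The log2 ratio of LIPUS over Control was taken without a pseudocount, for genes with a mean FPKM of at least 1 and both values above 0. A ratio of 1.5 in either direction was counted, beside its share over all genes kept. Genes within 2-fold of the mean FPKM of a member served to describe its level class. Rows were matched by symbol or, for Areg, by Ensembl identifier. Positions are from GENCODE M21 (GRCm38) and promoter windows from RefSeq (GRCm38.p6). The genes named are all members, and of each pathway list those past the 1.5-fold line and the most abundant, and the 3 genes nearest to Hbegf. Other genes named, such as Adam17, Jun and Myc, were chosen after their values were seen. The members and lists were chosen with earlier results of these data known. The ratio step was tested on simulated data. Python 3.11.15, numpy 2.4.6, pandas 2.3.3 and matplotlib 3.10.9 were used. The alternatives were pseudocounts of 0.1 and 1, centring on the median, ratios of 5 to 4 and of 2, and other minimum FPKM values.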

Additional observations from a re-analysis of the deposited data

How the results depend on the processing

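All 8 members with values above 0 kept the direction of their ratio with a pseudocount of 0.1 or 1 FPKM and after centring on the median of all genes kept, and the largest shift was 0.16 on the log2 scale, for Btc with a pseudocount of 1 (-0.07). The count of members past the line was 0 in every alternative except a ratio of 5 to 4, which gave 4 (Hbegf, Errfi1 and Ereg higher, Erbb2 lower). With a ratio of 2, the count was 0 for the adaptors and kinase cascade, 0 for receptor turnover and inhibition, 0 for MAPK feedback and 3 for the early genes, all higher, against 2.66% of all genes. With a ratio of 5 to 4 it was 4 of 21 (all lower), 2 of 13 (both lower) and 3 of 8 (2 higher, 1 lower) for the first 3 of these lists and 9 of 14 (all higher) for the early genes, against 16.8% higher and 17.8% lower of all genes. A pseudocount of 1 gave 0 for the adaptors and kinase cascade and 0 for receptor turnover and inhibition, and a mean FPKM of at least 5 gave 0 for the former. Without a filter, ligand shedding had 1 (Adam12, lower) and MAPK feedback 2 (Dusp5 and Spry1, both higher), against 22.8% of all genes. Adam12, at 0.206 FPKM in Control and 0.0938 in LIPUS, and Spry1, at 0.0823 and 0.191, lie near 0. No paired analysis was possible because the table holds 1 pooled value per group, and for the same reason no culture could be left out in turn. The table gives no number of reads behind an FPKM, so the counting error of low values, such as those of Btc, Epgn, Adam12 and Spry1, could not be computed.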
